A study of Arabidopsis thaliana with 58 samples.

Results

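In all, 8 *Arabidopsis thaliana* lines that carry SDG2cd–ZF in the Col-0 background (lines 5, 6, 7, 9, 12, 13, 14 and 15) were set against 3 libraries of Col-0 that carry no transgene. They were chosen by their sample labels, and they are 11 of the 47 libraries of the series with a methylation file and of its 58 samples. SDG2cd–ZF is the catalytic domain of the histone methyltransferase SDG2 joined to the zinc finger ZF108, which was designed to bind the *FWA* gene, and it is expressed from the *UBQ10* promoter throughout the plant rather than in chosen cells. All plants were of the Columbia-0 ecotype, and DNA came from leaves of 4-5 week old plants. In addition, 3 libraries of *fwa*, an epiallele of the same ecotype that has lost DNA methylation at this promoter, gave the background level. Each line gave 1 library, and the labels state neither the generation of each line nor whether plants were pooled. The comparison asks how far the methylation of the promoter differs between plants with the fusion and plants without it, by sequence context and by cytosine.

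*FWA* encodes a homeodomain transcription factor that delays flowering when it is expressed outside the endosperm, and in Col-0 leaves it is silent under a methylated promoter. In plants, CG methylation is copied at replication by MET1, CHG methylation is maintained mainly by CMT3, and CHH methylation is laid down anew by DRM2 through RNA-directed DNA methylation or by CMT2 (H is any base but guanine). SDG2 places trimethylation on lysine 4 of histone H3, a mark of active promoters. DNA glycosylases of the DEMETER family, ROS1 among them, can remove methylated cytosines.

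BS-PCR-seq, the sequencing of PCR products from bisulfite-treated DNA, covered 3 regions around the *FWA* start, all read on the minus strand. The gene itself is transcribed from the other strand (AT4G25530, chr4:13038360-13042464, plus strand, TAIR10.1). Region 1, chr4:13038143-13038272, is upstream of that start. Region 2, chr4:13038356-13038499, holds exon 1 and the beginning of intron 1. Region 3, chr4:13038568-13038695, holds the end of exon 2 and the beginning of intron 2. The 74 cytosines with at least 10 reads were 14 CG, 3 CHG and 57 CHH sites, and 22, 28 and 24 of them lay in regions 1, 2 and 3. The level of a site is the percentage of reads that kept a C, and the level of a library is the unweighted mean over the sites of a context.

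Region 1 is shown because the 3 CHH sites with the highest mean over the lines lay in it. It is the minus strand of chr4:13038143-13038272 (RefSeq TAIR10.1), 5′ to 3′, so it starts nearest to the gene, and capitals mark the 3 CG sites.
region 1: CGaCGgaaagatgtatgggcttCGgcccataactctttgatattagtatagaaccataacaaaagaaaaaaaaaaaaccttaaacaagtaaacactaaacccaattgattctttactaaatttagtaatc
The 3 CHG sites and the CHH sites that carry the account below are shown with 10 bases on each side on the minus strand. Capitals mark the measured cytosine and the 2 bases after it.
site 13038491, CHG, region 2: atctgattgtCAGtatcccac
site 13038499, CHG, region 2: caacaataatCTGattgtcag
site 13038583, CHG, region 3: aaagcaaaaaCCGtaaagcgg
site 13038171, CHH, region 1: acactaaaccCAAttgattct
site 13038173, CHH, region 1: aaacactaaaCCCaattgatt
site 13038246, CHH, region 1: gggcttcggcCCAtaactctt
site 13038370, CHH, region 2: agcaaaaaccCTAgagcggcg
site 13038408, CHH, region 2: ccttaaacaaCCAaatagcac
site 13038428, CHH, region 2: aagttgtgtgCTAaaagcaac
site 13038639, CHH, region 3: aagttgtgtgCTAaaagcaac

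The median number of reads per cytosine was 18043 to 42089 in the lines. It was 26112 in the Col-0 library whose protocol label has the same wording as that of the lines (the first set below), and 407158 and 502480 in the other 2 Col-0 libraries (the second set). The fewest reads at any site of a line or a Col-0 library were 6789, and the widest 95% Wilson interval was 0.98 percentage points on either side. Such intervals cover counting error alone, because several reads may derive from 1 molecule and no identifiers marked the molecules. No 2 libraries of a group agreed within sampling noise: the closest pair, lines 6 and 12, had a chi-square of 19.6 per site.

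CG methylation was lower in every line than in every Col-0 library. Lines 5, 6, 7, 9, 12, 13, 14 and 15 had CG levels of 9.09%, 1.19%, 4.86%, 11.8%, 1.23%, 27.0%, 20.6% and 33.5%. It was 88.0% in Col-0 of the first set and 84.3% and 87.8% in Col-0 of the second set. The lines averaged 13.7% ± 12.1 (SD, n = 8), against 86.7% ± 2.07 in Col-0 (SD, n = 3). The difference was -73.0 percentage points (standard error 4.45), with an exact permutation p of 0.00606 and a Benjamini-Hochberg adjusted p of 0.0364 over 6 tests. That p is the smallest that 165 arrangements of 8 and 3 libraries allow. Against the Col-0 library of the first set alone the difference was -74.3 points. That set holds 1 Col-0 library, so the difference within it is a value with no test. With 1 library fewer the adjusted p of the exact permutation test was 0.0250 without line 15, 0.050 without any other line and 0.0667 to 0.0727 without any 1 Col-0 library (replicate 1 or 2 of the second set, or replicate 2 of the first), with differences of -75.9 to -71.3 points.

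CHG methylation, measured at 3 sites only, was also lower in all 8 lines than in all 3 Col-0 libraries. Its level was 3.68%, 0.260%, 1.91%, 5.55%, 0.111%, 10.1%, 7.84% and 11.5% in lines 5, 6, 7, 9, 12, 13, 14 and 15. In Col-0 it was 11.6% in the first set and 13.3% and 14.5% in the second. The gap between the highest line and the lowest Col-0 library was therefore narrow. The lines averaged 5.11% ± 4.37 (SD, n = 8) and Col-0 13.1% ± 1.48 (SD, n = 3). The difference of -8.02 points (standard error 1.77) had an exact permutation p of 0.0182 and an adjusted p of 0.0545, which missed the threshold of 0.05. With reads pooled over sites the adjusted p of the exact permutation test was 0.0364, and without line 15 it was 0.0250. With the median over sites the difference was -2.77 points (exact permutation, adjusted p = 0.371), and with cytosines of under 10 reads let in it was -5.66 points (adjusted p = 0.727). Without the CHG sites at 13038491 and 13038499, which a primer of another region also matches, the difference at the remaining site was -2.74 points (exact permutation, adjusted p = 0.393).

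For CHH methylation no difference in mean between the lines and Col-0 passed the test, and single lines lay on both sides of Col-0. The CHH level was 4.42%, 0.627%, 2.93%, 4.41%, 0.50%, 13.3%, 9.25% and 8.32% in lines 5, 6, 7, 9, 12, 13, 14 and 15. Col-0 had 4.27% in the first set and 4.73% and 6.48% in the second. Lines 13, 14 and 15 lay above all 3 Col-0 libraries, lines 6, 7 and 12 lay below all of them, and lines 5 and 9 fell among them. The difference of 0.30 points (standard error 1.72) had an exact permutation p of 0.927 (adjusted p 0.927). It was 1.19 points against the first set alone, and it turned to -0.811, -0.239, -0.106 and -0.142 points without line 13, line 14, line 15 and Col-0 of the first set. The lines averaged 5.46% ± 4.47 (SD, n = 8) and Col-0 5.16% ± 1.17 (SD, n = 3).

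**Figure D1:**
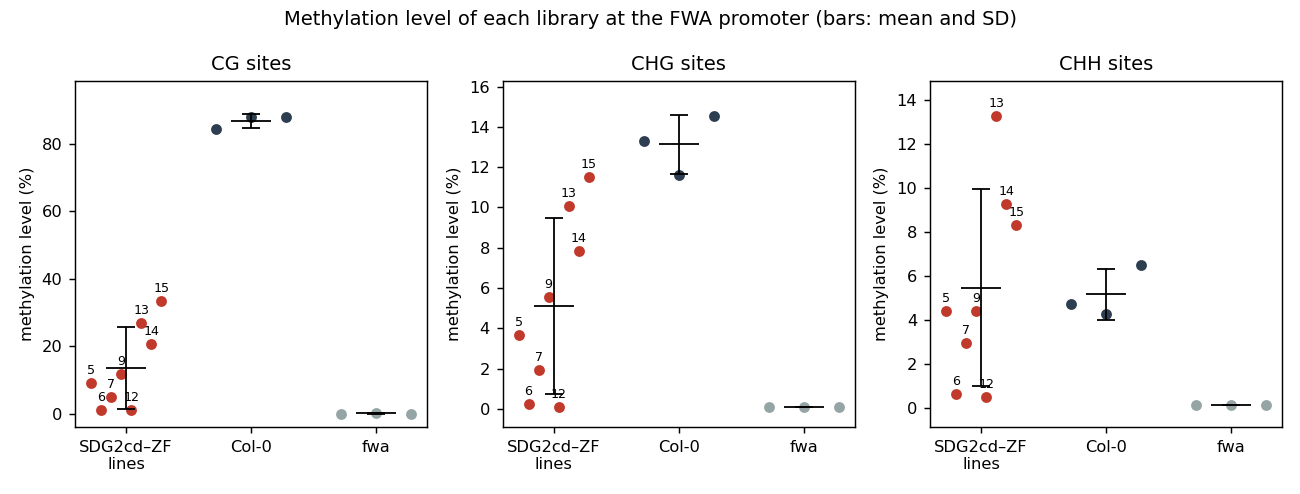
Methylation level (%, y axis) of each SDG2cd–ZF line (points with the line number), each Col-0 library and each *fwa* library, in separate panels for CG, CHG and CHH sites, with group mean and SD as bars. In the CG panel the lines lie between 1.19% and 33.5%, and the Col-0 libraries between 84.3% and 88.0%. In the CHH panel the lines lie on both sides of Col-0.

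The mean level of every line was above that of *fwa* in each context. The 3 *fwa* libraries had CG levels of 0.0806% to 0.228%, CHG levels of 0.0803% to 0.107% and CHH levels of 0.114% to 0.136%. Lines 6 and 12 came nearest, and the CHG level of line 12, 0.111%, was barely above that range. Within single regions line 12 was not above all 3 *fwa* libraries for CHG in region 2, where it had 0.0846% against 0.0898% to 0.114%, and for CHH in region 3, where it had 0.120% against 0.0967% to 0.128%. The difference of means from *fwa* was 13.5 points for CG, 5.02 for CHG and 5.34 for CHH, with exact permutation p of 0.0788, 0.0485 and 0.0485 and adjusted p of 0.0945, 0.0727 and 0.0727. None of these passed, although all 8 lines were above all 3 *fwa* libraries in each context. The lines spread widely, and full separation did not give the smallest p in this test of means. These p-values therefore do not show that the lines were level with *fwa*.

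Expressed as a share of the Col-0 mean, the 3 contexts stood apart within the same libraries. The CG level of a line was 1.37% to 38.6% of the Col-0 mean, with a mean of 15.8% ± 14.0 (SD, n = 8). The CHG level was 0.847% to 87.5%, with a mean of 38.9% ± 33.3. The CHH level was 9.69% to 257% of the Col-0 mean, with a mean of 106% ± 86.6. The CHG share exceeded the CG share by 23.2 points on average, in 7 of 8 lines (exact paired permutation over lines, p = 0.0156, adjusted p = 0.0201 over 9 tests), with line 12 the exception. Without the CHG sites 13038491 and 13038499 that excess was 48.6 points, and with the median over sites it was 48.8 points. The CHH share exceeded the CG share by 90.1 points and the CHG share by 66.9 points, in 8 of 8 lines each (exact paired permutation, p = 0.00781 and adjusted p = 0.0117 for both). The Col-0 mean was a fixed divisor in all tests of shares, so their p-values leave out the spread between Col-0 libraries. The excess of CHH over CG was 112 points with Col-0 of the first set alone and 81.6 points with the second set alone. Without the same 2 sites the excess of CHH over CHG was 41.5 points. With cytosines of under 10 reads let in, the excess of CHG over CG was 51.7 points and that of CHH over CHG 21.6 points, and neither passed (exact paired permutation, adjusted p = 0.0527 and 0.202). In absolute terms the CHH level was 24.9% to 60.2% of the CG level of the same line, against 4.86% to 7.39% in Col-0.

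The regions differed as well. CG sites of region 1 held 19.8% ± 16.1 of the Col-0 mean, against 14.5% ± 13.7 in region 2 and 14.7% ± 13.4 in region 3 (SD, n = 8). Region 1 was above region 2 by 5.31 points in 8 of 8 lines (exact paired permutation, adjusted p = 0.0117) and above region 3 by 5.13 points in 7 of 8 lines (adjusted p = 0.0264, and 0.0527 without line 5, 7, 9, 13, 14 or 15). With cytosines of under 10 reads let in, neither passed (exact paired permutation, adjusted p = 0.155 and 0.176). Regions 2 and 3 differed by -0.182 points (exact paired permutation, adjusted p = 0.648). For CHH the order was steeper, with 168% ± 120 in region 1, 92.6% ± 84.9 in region 2 and 73.1% ± 65.6 in region 3. All 3 pairs of regions differed in the same direction in 8 of 8 lines (by 75.8, 95.4 and 19.5 points for regions 1 and 2, 1 and 3, and 2 and 3, each with an exact paired permutation adjusted p of 0.0117). The CHH order depended on averaging by the mean. With the median over sites in place of the mean, region 1 minus region 2 was -23.7 points and region 1 minus region 3 was 2.35 points, and neither passed (exact permutation, adjusted p = 0.343 and 0.906). Region 1 minus region 2 also missed the threshold for CHH, at 14.3 points, when cytosines of under 10 reads were let in (exact permutation, adjusted p = 0.202). Region 1 minus region 3 was then 33.8 points and still passed (exact permutation, adjusted p = 0.0234).

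**Figure D2:**
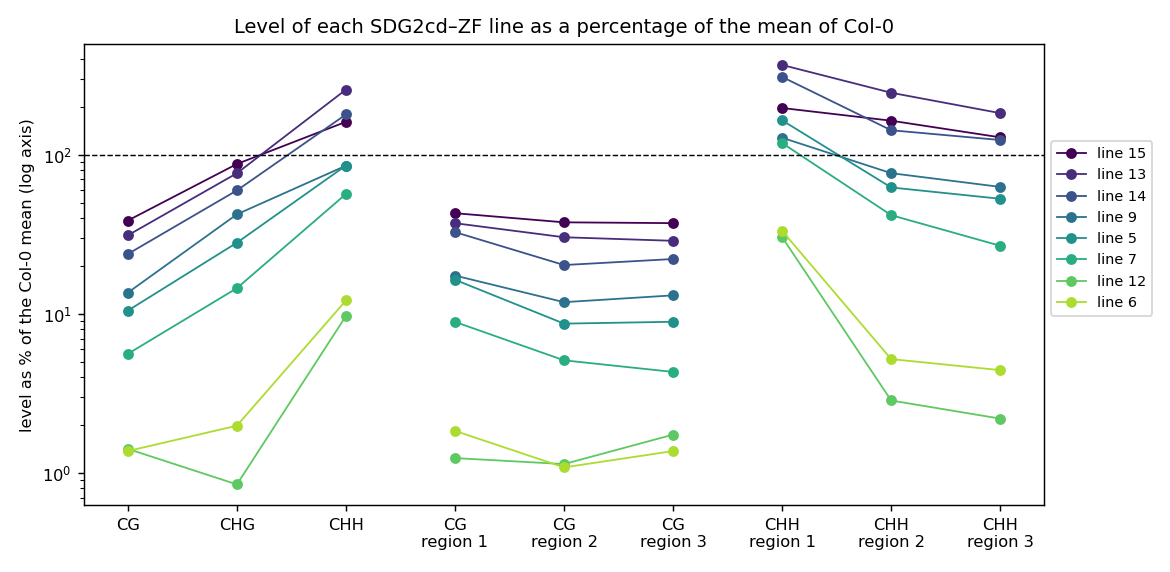
Level of each SDG2cd–ZF line as a percentage of the Col-0 mean (log axis), for the 3 contexts and for CG and CHH sites by region, with 1 colour per line and a dashed line at the Col-0 mean. The CG points stay at or below 42.9%, and the CHH points of region 1 reach 367%.

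Site by site, 16 of 74 cytosines passed the test as lower in the lines, which is 21.6% of the sites tested, and none passed as higher (0%). The test was an exact permutation test per site with Benjamini-Hochberg adjustment over all 74. The same 16 sites had all 8 lines below all 3 Col-0 libraries (21.6% of the sites). They comprised all 14 CG sites, 1 of 3 CHG sites and 1 of 57 CHH sites, each with p = 0.00606 and an adjusted p of 0.0280 in the exact permutation test. Full separation upward gave larger p-values in this test of means. At 13038173 and 13038195, with all 8 lines above all 3 Col-0 libraries, p was 0.0303 and 0.0364 (exact permutation). The absence of sites that passed as higher therefore does not show that no site was higher. No site reached an adjusted p under 0.01, and leaving out any 1 of the 3 Col-0 libraries brought the count to 0, because 45 arrangements of 8 and 2 libraries allow no p below 0.0222. At an unadjusted p under 0.05, 17 sites were lower and 3 were higher. A quasi-binomial model of the read counts called the same 16 sites as lower and 6 CHH sites, all in region 1, as higher.

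Among CG sites the largest difference was at 13038575 in exon 2. Its level in the lines was 0.554% at the lowest, 10.7% at the median and 37.5% at the highest, against 94.5%, 94.8% and 95.5% in Col-0. The difference was -80.7 points. The smallest difference and the smallest share of the Col-0 mean were both at 13038678 in intron 2, with 0.314%, 5.42% and 18.5% at the lowest, median and highest line, and with 57.8%, 68.1% and 71.5% in Col-0. The lines held 11.6% of the Col-0 mean there. The largest share, 22.2%, was at 13038269 in region 1, where the lines had 0.747%, 16.8% and 41.1% (lowest, median and highest) and Col-0 85.0% to 88.2%. Groups did not overlap at any of these sites, and the shares over the 14 CG sites stayed between 11.6% and 22.2%.

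Of the 3 CHG sites 1 passed. At 13038491, a CAG in intron 1 and the most methylated CHG site of Col-0, the levels were 5.12%, 0.466%, 2.43%, 5.98%, 0.148%, 12.7%, 9.66% and 16.8% in lines 5, 6, 7, 9, 12, 13, 14 and 15. Col-0 had 24.1% in the first set and 27.1% and 29.9% in the second. All lines were lower, by 20.4 points on average, and the site passed (exact permutation, adjusted p = 0.0280). At 13038499, a CTG 8 bases away, the lines had 0.0208% at the lowest, 3.58% at the median and 7.54% at the highest, against 4.17%, 4.22% and 5.56% in Col-0. Here 3 lines lay above and 4 below all Col-0 libraries, and the difference of -0.936 points did not pass (exact permutation, adjusted p = 0.770). At 13038583, the outer cytosine of a CCG in exon 2, the lines had 0.160%, 4.71% and 10.6% (lowest, median and highest), against 6.50%, 8.10% and 8.51% in Col-0. The difference was -2.74 points (exact permutation, adjusted p = 0.571), with 5 lines below and 2 above. The reverse primer of region 3 matches a second place at both CHG sites of region 2, with 2 mismatches. Its part in these values was not tested.

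**Figure D3:**
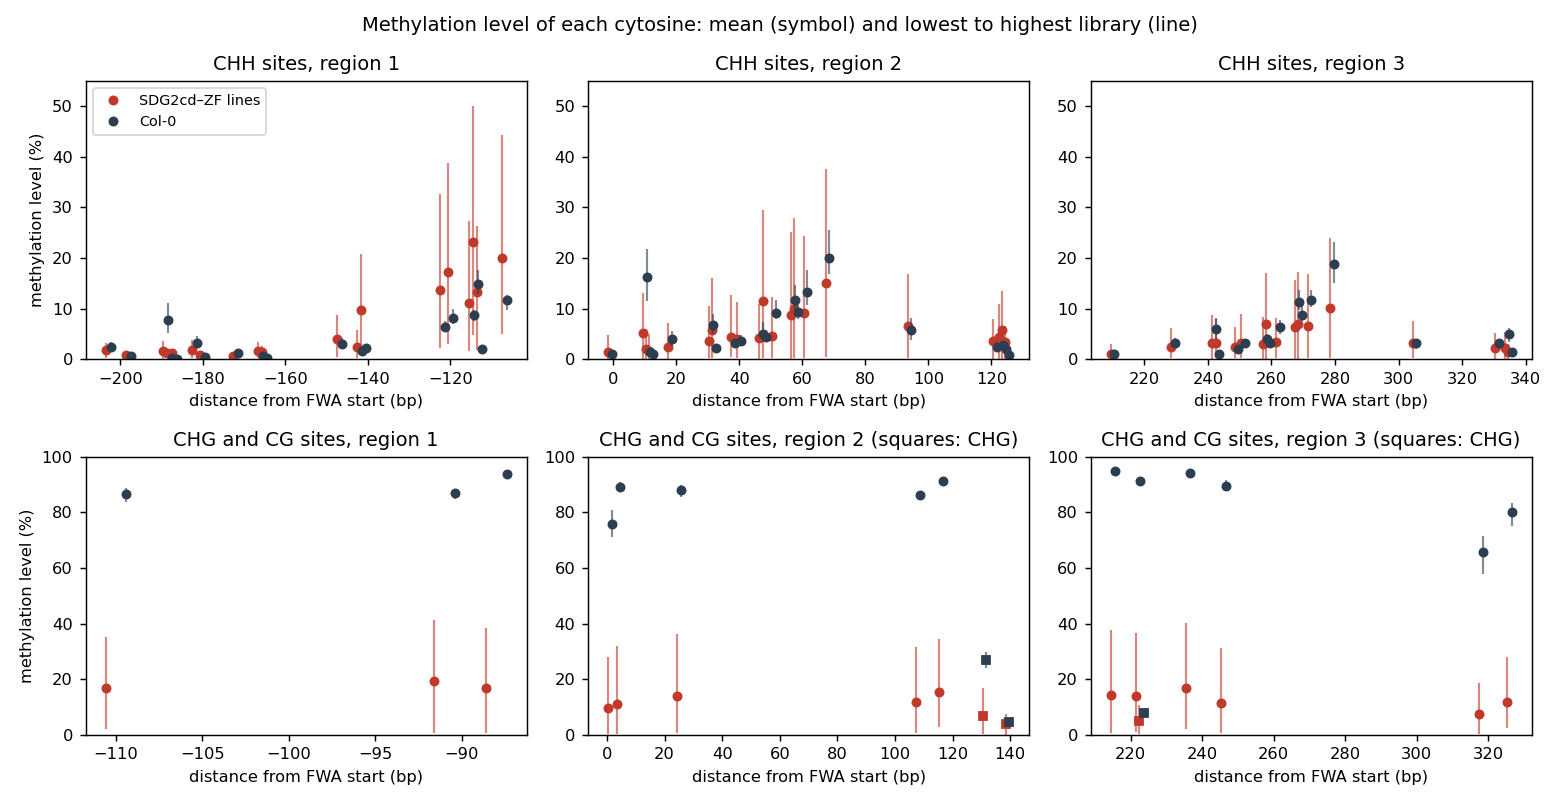
Level (%) of each cytosine against its distance from the *FWA* start (bp), by region, with CHH sites in the upper panels and CG (circles) and CHG (squares) sites in the lower ones. Symbols are means and lines run from the lowest to the highest library, with SDG2cd–ZF lines to the left of Col-0 at each site. At the right end of region 1 the CHH means of the lines are above those of Col-0, and at the CG sites they are far below.

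The CHH means of the lines lay on both sides of Col-0. Of 57 sites, 23 had a lower mean in the lines and 34 a higher one, and the median site held 112% of its Col-0 mean. The only CHH site that passed the test was 13038171, a CAA in region 1. Its levels were 0.0924% at the lowest line, 1.21% at the median and 3.52% at the highest, against 5.21%, 6.74% and 11.2% in Col-0. The lines held 20.1% of the Col-0 mean there, the lowest share of any CHH site. The neighbouring 13038172 and 13038173, which form a run of 3 cytosines with it, went the other way. At 13038173 the lines had 0.170% to 2.02% (median 1.36%), all above the 0.0810% to 0.113% of Col-0. The mean was 1.15% in the lines and 0.0954% in Col-0, where *fwa* had 0.0480%, and the site did not pass (exact permutation, adjusted p = 0.125). Site 13038195 was the only other site with all 8 lines above Col-0 (2 of 74 sites, 2.7%), at 0.268% to 2.61% against 0.150% to 0.247% in Col-0.

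The 3 highest CHH means over the lines were in the 60 bases of region 1 that lie nearest to the gene, a stretch chosen after its values were seen and given here as a description. Its 9 CHH sites averaged 12.3%, 2.50%, 8.92%, 9.63%, 2.33%, 28.3%, 23.3% and 14.3% in lines 5, 6, 7, 9, 12, 13, 14 and 15, against 5.58%, 6.40% and 7.58% in Col-0. All 9 sites had a higher mean in the lines. Only lines 6 and 12 fell below Col-0 there, and even they stood well above the 0.191% to 0.208% of *fwa*. The other 10 CHH sites of region 1 averaged 1.27% ± 0.830 in the lines and 1.67% ± 0.577 in Col-0 (SD, n = 8 and 3).

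Site 13038246, a CCA in that stretch, had the highest mean over the lines of any CHH site, 23.2%, with 22.4%, 4.77%, 15.9%, 18.8%, 4.71%, 50.0%, 41.9% and 26.9% in lines 5, 6, 7, 9, 12, 13, 14 and 15. Col-0 had 12.9%, 14.4% and 17.5%. It was not the highest CHH site in every line, since 13038253 was higher in lines 6 and 12 and 13038428 of region 2 was higher in line 15 (28.9%). Here 5 lines lay above and 2 below all Col-0 libraries, and the difference of 8.24 points did not pass (exact permutation, adjusted p = 0.686). Sites 13038253, 13038240 and 13038238, the next by mean in this region, had 19.9% ± 13.6, 17.1% ± 12.5 and 13.7% ± 10.5 in the lines (SD, n = 8), against 11.6% ± 1.57, 8.22% ± 1.53 and 6.42% ± 1.10 in Col-0 (SD, n = 3). At each of these, 6 lines were above and 2 below all Col-0 libraries, and none passed (exact permutation, adjusted p of 0.521 to 0.571).

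Of the 9 CHH sites with at least 10% in Col-0, 7 had a lower mean in the lines and 2, both in region 1, a higher one. None of the 9 passed. Site 13038370, a CTA in exon 1, had 0.0925%, 3.24% and 13.1% at the lowest, median and highest line, against 11.6%, 15.2% and 21.9% in Col-0. It held 32.4% of the Col-0 mean, and its adjusted p was 0.0791 in the exact permutation test. Site 13038428, a CTA in intron 1, had 15.0% ± 13.4 in the lines and 20.0% ± 4.73 in Col-0 (SD, n = 8 and 3). Sites 13038417 and 13038421 of region 2 held 74.8% and 68.0% of the Col-0 mean, and 13038628, 13038632 and 13038639 of region 3 held 56.1%, 55.5% and 54.1%.

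CHH sites were also grouped by the bases after the cytosine. These classes were formed after the values were seen, so their counts are a description. At the 17 CHH sites followed by another cytosine (CCA, CCC and CCT), 15 means were higher in the lines and 2 lower, and the median site held 265% of its Col-0 mean. At the 21 sites that read CAA or CTA, 19 means were lower and 2 higher, and the median site held 58.6%. The other 19 sites (CAC, CAT, CTC and CTT) had 17 higher and 2 lower means, with a median of 127%. The classes also differed in Col-0, where the median site had 2.05%, 4.97% and 3.12% in the same order. Over the 57 CHH sites the share had a rho of -0.577 with the Col-0 level, which is also its divisor. Shares thus tended to be larger at sites with low levels in Col-0, and the part of this in the class shares was not tested. Sites with a cytosine next averaged 5.34%, 0.756%, 3.57%, 5.56%, 0.571%, 14.8%, 11.3% and 8.83% in lines 5, 6, 7, 9, 12, 13, 14 and 15, against 2.84%, 3.01% and 3.91% in Col-0. CAA and CTA sites averaged 3.10%, 0.284%, 1.89%, 3.41%, 0.168%, 10.7%, 6.88% and 8.10% in the same lines, against 5.57%, 6.71% and 9.47% in Col-0. The ratio of the first mean to the second was 1.09 to 3.39 in the lines and 0.412 to 0.509 in Col-0, so the 2 groups did not overlap. Line 15 had the lowest ratio of the lines and line 12 the highest, while *fwa* at its background level had 0.637 to 1.10. These ratios mix the 3 regions, which differed. In region 1 the 2 classes averaged 8.30% and 1.96% in the lines, against 3.27% and 3.50% in Col-0. In region 2 they averaged 5.69% and 5.95% in the lines, against 3.04% and 9.60% in Col-0. In region 3 the means were 4.57% and 4.17% in the lines, against 3.59% and 7.25% in Col-0.

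**Figure D4:**
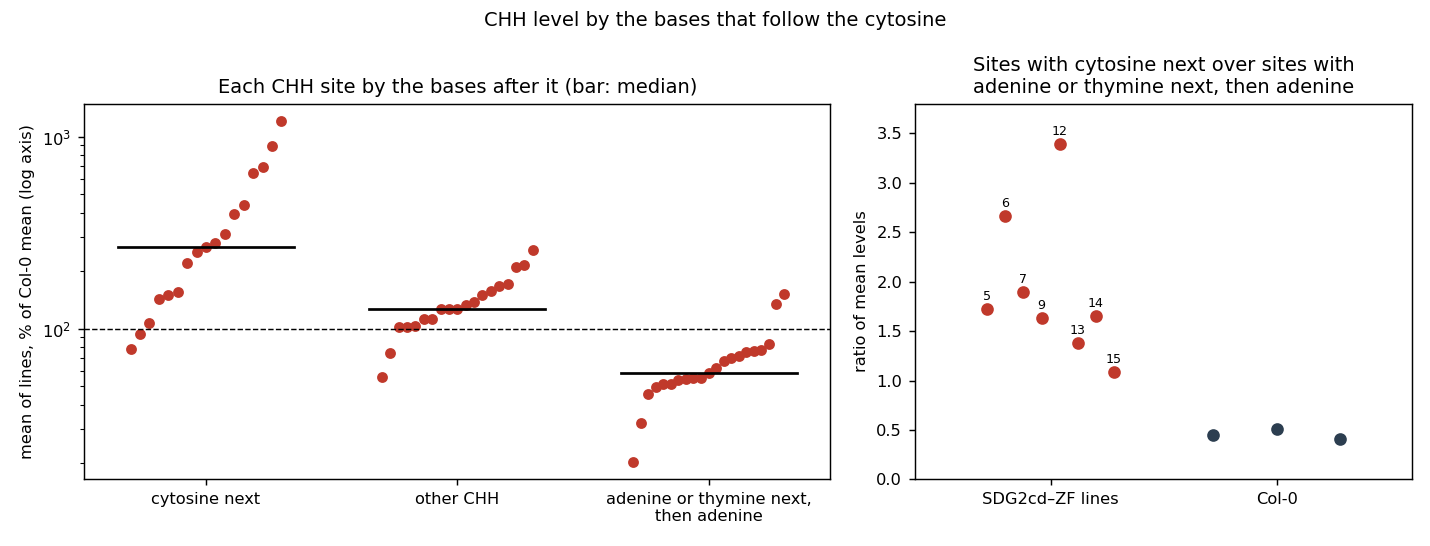
Left, mean of the SDG2cd–ZF lines as a percentage of the Col-0 mean (log axis) for each CHH site, by the bases that follow the cytosine, with the class median as a bar and a dashed line at 100%. Right, ratio of the mean level of sites with a cytosine next to that of sites followed by adenine or thymine and then adenine, per SDG2cd–ZF line and per Col-0 library. All 8 lines are at 1.09 or higher and Col-0 at 0.509 or lower.

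Neighbouring cytosines were compared next, also after their values were seen. There were 17 pairs of CHH sites in which a cytosine was followed directly by another. The first cytosines are the same 17 sites with a cytosine next, so the pairs are not separate from the classes above. Sites 13038172, 13038246, 13038371 and 13038484 are each the second cytosine of a pair and the first of another, so the pairs also overlap. The first cytosine held a larger share of its Col-0 mean than the second in 16 of 17 pairs, the exception being the pair 13038372 and 13038371. In the lines the first cytosine had the higher mean in 8 of 17 pairs, and in Col-0 in 2 of 17. Lower levels in Col-0 went with larger shares over the CHH sites, as given above, and their part in the pairs was not tested. At 13038408 and 13038407 in exon 1, which read CCA and CAA, the lines averaged 11.5% and 4.14%, against 4.32% and 4.97% in Col-0. The first was above the second in 8 of 8 lines. At 13038392 and 13038391 the lines averaged 5.66% and 3.49%, against 2.27% and 6.77% in Col-0, and the first was again above the second in 8 of 8 lines. Other pairs went the opposite way. At 13038247 and 13038246 the lines averaged 13.3% and 23.2%, against 2.05% and 14.9% in Col-0, and the first was above the second in 0 of 8 lines. The count was also 0 of 8 at 13038371 and 13038370 and at 13038372 and 13038371.

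Regions 2 and 3 hold repeated sequence, so 10 CHH sites of region 2 have a counterpart in region 3 with the same 4 bases on either side, 211 bases away. The repeats resemble each other, and any exchange of reads between them in mapping was not tested. Of the 10 pairs, 6 had lower means in the lines at both copies, 3 had higher means at both, and 1 pair differed in direction. The CCA at 13038408 held 265% of its Col-0 mean and its counterpart 13038619 held 219%. The CTA at 13038428 held 75.1% and its counterpart 13038639 held 54.1%. Over the 10 pairs the shares of the 2 copies had a Pearson r of 0.977, a description across sites of the same libraries. The pair 13038408 and 13038619 lay far above the others, which held 49.8% to 112% in region 2 and 54.1% to 101% in region 3. The coefficient without that pair was not computed.

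The order of the lines was nearly the same in the 3 contexts. By CG level the order was line 15, 13, 14, 9, 5, 7, 12 and 6, from high to low, and by CHG level it was the same apart from lines 6 and 12, which changed places. By CHH level line 13 came first, then lines 14, 15, 5, 9, 7, 6 and 12. Lines 5 and 9 (4.42% and 4.41% CHH) and lines 6 and 12 (1.19% and 1.23% CG) had nearly equal levels, and with 1 library per line the order within such pairs has no replicate. Over the 8 lines, CG and CHG levels had r = 0.991 and rho = 0.976 (exact permutation, adjusted p = 7.44e-05 and 0.000595 over 6 relations). CG and CHH levels had r = 0.890 and rho = 0.881 (exact permutation, adjusted p = 0.00387 and 0.00724), and CHG and CHH levels r = 0.911 and rho = 0.905 (adjusted p = 0.00223 and 0.00548). Lines 13 and 15 were the farthest from the median of CG, and without them r was 0.989 for CG with CHG and 0.987 for CG with CHH. For CHG with CHH it was 0.962 without the same 2 lines.

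Line 15 departed from the common order in CHH, with the highest CG level of the lines and the third CHH level. Its CHH level was 24.9% of its CG level, against 37.4% to 60.2% in the other 7 lines. Leaving out each line in turn gave r of 0.866 to 0.991 for CG with CHH. At the level of single sites, line 15 was the highest line at 14 of 14 CG sites and at 2 of 3 CHG sites, but at 2 of 57 CHH sites. Line 13 was the highest at 50 CHH sites and line 14 at 5. Lines 6 and 12 were the lowest 2 lines at 13 of 14 CG sites, 3 of 3 CHG sites and 57 of 57 CHH sites, and lines 13, 14 and 15 were the highest 3 at 14, 3 and 54.

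**Figure D5:**
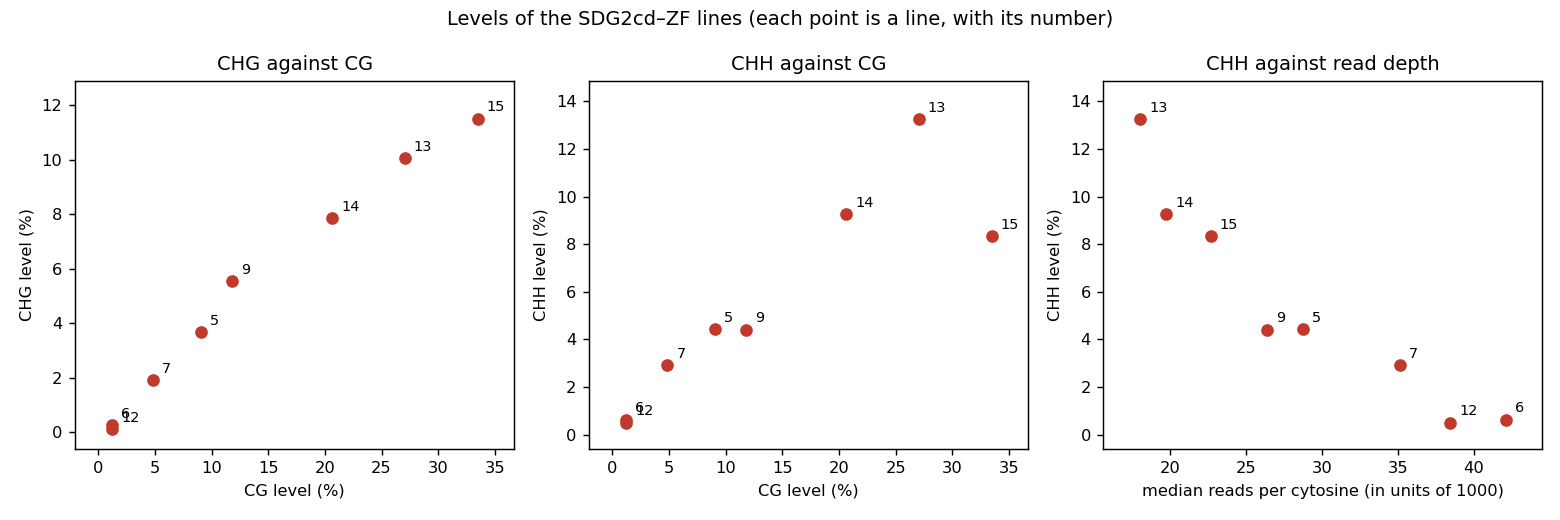
CHG level against CG level, CHH level against CG level, and CHH level against the median number of reads per cytosine (in units of 1000), for the 8 SDG2cd–ZF lines, each point marked with its line number. CHG follows CG closely (r = 0.991), line 15 has less CHH than lines 13 and 14, and lines with more reads tend to have lower levels.

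Across regions the CG order was kept as well, with r = 0.978 for regions 1 and 2, 0.984 for regions 1 and 3 and 0.997 for regions 2 and 3 (exact permutation, adjusted p = 7.44e-05 for each). The corresponding rho were 0.976, 0.976 and 1.00 (exact permutation, adjusted p = 0.000595, 0.000595 and 0.000298). Without lines 13 and 15, r was 0.993, 0.985 and 0.997.

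Read depth followed the same order in reverse. Over the 8 lines, the median number of reads per cytosine had r = -0.882 and rho = -0.929 with the CG level, r = -0.925 and rho = -0.905 with the CHG level and r = -0.941 and rho = -0.952 with the CHH level (exact permutation, adjusted p of 0.00283 to 0.00528 over 3 relations). Without lines 6 and 12, the farthest from the median depth, r was -0.818, -0.869 and -0.918. Line 6 had 42089 reads per cytosine and line 13 had 18043. The Col-0 library of the first set had 26112 reads, within the range of the lines, and a CG level of 88.0%. Whether depth had a part in the order of the lines was not tested.

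The number of CHH sites above Col-0 differed widely between lines. Line 13 was above all 3 Col-0 libraries at 51 of 57 CHH sites, lines 14 and 15 at 38 each, line 5 at 20, line 9 at 19, line 7 at 12, line 6 at 4 and line 12 at 2. The sites of lines 6 and 12 that were above Col-0 were all in region 1 and all had a cytosine next. Lines 13, 14 and 15 were above Col-0 at 17 of 17 sites with a cytosine next, and at 15, 4 and 5 of the 21 CAA and CTA sites. Line 5 was above Col-0 at 12 and 0 of these sites, and line 9 at 12 and 1. At the other 19 CHH sites (CAC, CAT, CTC and CTT), lines 13, 14 and 15 were above Col-0 at 19, 17 and 16. Lines 5 and 9 were above it at 8 and 6 of them, so being above Col-0 was not particular to sites with a cytosine next. At the CG sites no line was above any Col-0 library.

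The files also cover a stretch within the gene *MSH3* (AT4G25540), which encodes a DNA mismatch repair protein, at chr4:13044647-13044770. It lies 2183 bases past the end of *FWA*, and its 27 cytosines with at least 1000 reads in each library include 7 CG sites, with 21 of the 27 in an exon. The mean CG level there was 76.4% to 88.8% (median 82.3%) in the lines, against 77.4%, 81.9% and 82.9% in Col-0 and 0.0610% to 0.355% in *fwa*. The lines overlapped with Col-0, and the difference of 1.74 points was smaller than the SD of 4.04 points over the lines (exact permutation, p = 0.503). Line 9 was the lowest there and line 13 the highest, while line 15, the highest at the *FWA* promoter, was the seventh of 8.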

How the data were processed

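The authors treated leaf DNA with bisulfite, amplified the 3 *FWA* regions with conversion-aware primers, pooled the products of each sample and sequenced them. Per the labels, BSMAP 2.90 and the TAIR10 genome were used. For each cytosine the deposited files hold 2 counts, of reads that kept C and of all informative reads, with the fraction that the authors calculated from them. The study's methods describe, for whole-genome libraries, the removal of reads that show methylation at a run of over 3 CHH sites; whether it was applied to these amplicons is not given in the sources used here, and such a step would bear on CHH levels.

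Levels were computed from the counts, with a minimum of 10 reads per cytosine (1000 outside the regions). All 74 sites passed in each library, and 19 further listed cytosines did not. The context of every listed cytosine matched TAIR10.1. The regions are the stretches between the primers, so no site lay at the intended place of a primer; the reverse primer of region 3 has a second match over 2 sites of region 2. Groups follow the sample titles. Tests were two-sided exact permutation tests over libraries, sign flips over lines for paired shares and exact pairings for correlations, with Benjamini-Hochberg adjustment and a threshold of 0.05. Only the per-site tests were run on simulated libraries. Sites there varied independently, with the same spread setting for lines and Col-0, unlike in these data. The exact difference test, the paired test and r were compared with reference calculations on random numbers. The labels do not say that libraries of a group came from separate plants, so p-values measure the spread between libraries. Members, sites and classes were chosen with earlier results of these data known. Sites named are all CHG sites, the CG sites with extreme differences or shares, CHH sites with at least 10% in Col-0, the 5 CHH sites with the highest mean in the lines and any site that passed as higher; other named sites were chosen after their values were seen. Alternatives covered the read minimum, pooling, medians, region means, the deposited fraction, the *fwa* background, the library set of Col-0, a quasi-binomial model, a stricter threshold, log2 scales and leaving out each library. Python 3.11.15 with numpy, scipy, pandas and statsmodels was used.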

Additional observations from a re-analysis of the deposited data

How the results depend on the processing

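No paired analysis was possible because the lines and the Col-0 and *fwa* libraries share no replicate number. The CG difference kept its direction under every alternative, but its adjusted p (exact permutation) reached 0.050 without any 1 line but line 15 and 0.0667 to 0.0727 without any 1 Col-0 library, where fewer arrangements remain; with Col-0 of the second set alone it was -72.4 points (adjusted p 0.0667), and leaving out each line or Col-0 library gave -75.9 to -71.3 (-74.2, -72.4 and -72.5 without replicate 1 of the second set, replicate 2 of the first and replicate 2 of the second). Over the same left-out libraries the CHG difference was -8.94 to -7.31 points, and with pooled reads it was -8.82 and passed. The CHH difference changed sign: it was -0.656 points with a minimum of 1 read, -0.142 with Col-0 of the second set alone, and -0.811 to 1.01 with a library left out. The sites lower in the lines numbered 0 with Col-0 of the second set alone and at an adjusted p under 0.01, and 0 to 16 with a library left out; the sites higher numbered 6 under the quasi-binomial model. With a minimum of 1 read, which lets in thinly covered cytosines, the shares differed by 51.7 points (CHG minus CG), 21.6 (CHH minus CHG), 6.01, 7.25 and 1.24 (CG, regions 1 minus 2, 1 minus 3 and 2 minus 3) and 14.3 (CHH, region 1 minus 2), and none of these passed. For CG, region 2 minus region 3 was 0.453 with pooled reads, -0.755 (passing) with medians over sites and -0.426 to 0.0552 with a library left out. With medians over sites CHH region 1 minus region 2 was -23.7 and region 1 minus region 3 was 2.35. The CG excess of region 1 over region 3 was 0.43 on the log2 scale (adjusted p 0.0527) and 4.35 to 5.93 points with a library left out, where the adjusted p reached 0.0527 without line 5, 7, 9, 13, 14 or 15. Leaving out the CHG sites under the second match of a primer, an alternative chosen after seeing the data, left 1 CHG site and 15 lower sites. The only CHG site that had passed, 13038491, was among those left out. The calls on contexts, regions and line order were kept, and the CHG difference moved to -2.74 points. Every site had at least 6789 reads in each line and Col-0 library; how many molecules these came from is not known, and the 8 and 3 libraries set the smallest p that the tests allow.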

Other observations

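Within the *MSH3* stretch, the CHG site 13044767 was read as methylated in every library, at 53.6% to 54.5% in the 8 lines (mean 54.0%), 55.5% to 61.4% in the 3 Col-0 libraries (mean 58.7%) and 57.4% on average in *fwa*. The other CHG site there, 13044700, averaged 0.894% across the 8 lines, 0.815% for Col-0 and 0.0183% for *fwa*. Apart from 13044767, no cytosine of the stretch averaged above 0.280% in *fwa*. Site 13044767 lies near the end of the stretch, and whether a primer covers it was not tested, so its level may not be methylation.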
